A study of Mus musculus with 12 samples.

Results

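*Ptprc*, *Cd3e*, *Cd3g*, *Cd4*, *Cd8a*, *Nkg7*, *Gzma*, *Ccl5*, *Cd79a* and *Ms4a1* are lineage genes of T cells, natural killer (NK) cells and B cells, and their RNA was read here in bulk mouse liver and liver tumor tissue. These 10 genes were listed by symbol, and 9 of them had a row among the 17007 genes of the expression table. *Cd3e* had no row and was not analysed here. Of the 9, only *Ptprc*, *Nkg7*, *Gzma* and *Ccl5* reached the level at which genes were tested (at least 0.5 FPKM in at least 3 libraries, met by 14397 genes), and the other 5 were too low. FPKM are fragments per kilobase of transcript, scaled to library size, so that levels can be compared between genes of different length.

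RNA came from 12 mice in 4 groups of 3. Normal livers were from untreated wild-type C57BL/6 mice. The other 3 groups were c-MYC/MCL1/RictorKO Tsc2KO tumors, in which hydrodynamic tail vein injection delivered c-MYC, MCL1 and Cre plasmids to hepatocytes of Rictor fl/fl Tsc2 fl/fl mice, with Cre under a CMV promoter. These mice received vehicle, MLN0128 at 1 mg/kg/day (an inhibitor of the mTOR kinase, and so of mTORC1 and mTORC2) or everolimus at 1 mg/kg/day (a rapamycin analog that acts on mTORC1), by gavage. The labels give 6 days a week for 3 weeks from 6 days after injection, with sacrifice at 3.7 weeks after injection. The running text of the study instead has 3 days of treatment for the tumors that were sequenced, so the length of treatment behind every drug comparison here is uncertain. The ages of the mice are not given in the sources used here. Tumor and normal liver therefore differed in injection, floxed alleles, oncogenes and gavage together, which cannot be told apart.

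Lymphocytes are a minor cell population of the liver, where NK cells, T cells and fewer B cells sit in the sinusoids beside Kupffer cells, the resident macrophages. *Ptprc* encodes CD45, a phosphatase on nearly all leukocytes. CD3 chains signal for the T cell receptor, and CD4 and CD8 are the coreceptors of helper and cytotoxic T cells. *Nkg7*, *Gzma* and *Ccl5* are products of cytotoxic T and NK cells, whereas CD79A and CD20 (the product of *Ms4a1*) belong to the B cell surface. In bulk tissue, fewer cells of a type and less RNA per cell cannot be told apart.

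The libraries held 17164090 to 25178729 reads recovered from the FPKM. The authors' scaling gave each read about the weight of a smaller library in normal liver (factors of 0.585 to 0.596 on the library total) and of a larger one in the tumors (1.10 to 1.37). Levels on plain library totals are given as RPM, reads scaled to a library total of 1000000. Replacing the authors' scaling by plain totals moved the median log2 difference of all tested genes between vehicle-treated tumors and normal liver from 0.06 to 0.62. Both scales are therefore given wherever tumors are set against normal liver. Hepatocyte markers fell in all 3 tumor groups, with 8 of 8 lower than in normal liver in each (7 of 8 on plain library totals). MLN0128 replicates 1 and 2 held *Xist* RNA at 191 and 155 FPKM and listed 4 Y-linked genes at 0, unlike the other 10 libraries, so comparisons with MLN0128 also compared X and Y content.

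All lymphocyte genes were scarce. Across the 12 libraries *Ccl5* had the highest median at 1.28 FPKM, followed by *Ptprc* at 0.607, *Gzma* at 0.550 and *Nkg7* at 0.307. *Cd79a* and *Cd4* had medians of 0.208 and 0.207, and *Cd3g*, *Cd8a* and *Ms4a1* lay at 0.0753, 0.0680 and 0.0180. Most of these levels rested on few reads. *Ptprc*, whose exons span 18313 bases, was read 120 to 470 times per library, but no other gene of the list exceeded 40 reads in any library. A floor of 3 reads corresponded to 0.0160 to 0.0465 FPKM for *Ms4a1* and to 0.108 to 0.315 FPKM for the short *Nkg7* transcript. Intervals and floors given here cover counting error only.

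**Figure D1:**
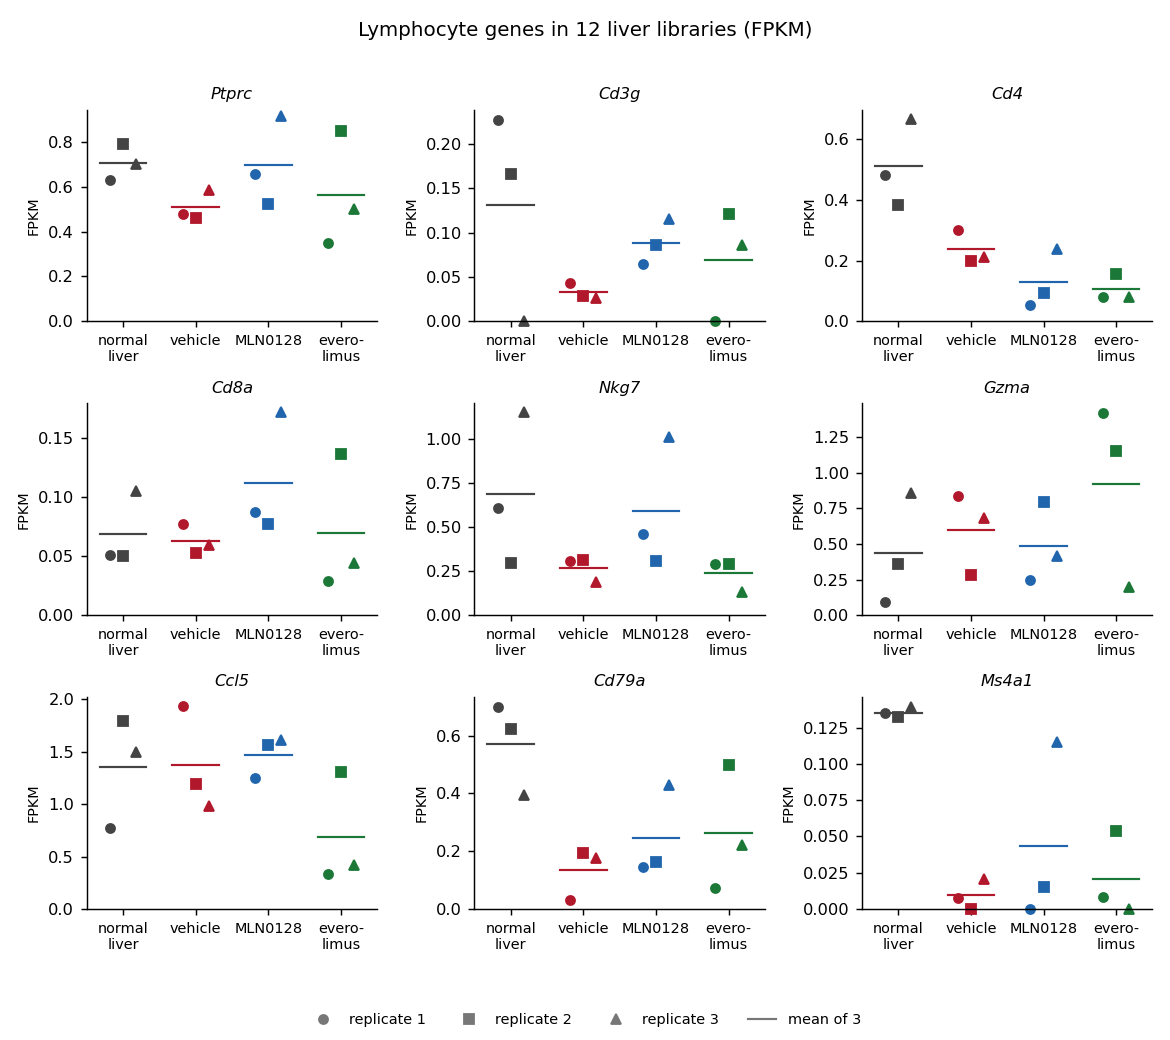
FPKM of the 9 lymphocyte genes by group, 1 panel per gene with its own linear axis from 0. Points are the 3 libraries of a group, marked by replicate number, and bars are group means. Normal livers sit above all 9 tumors for Cd4 and Ms4a1 on this scale, while MLN0128 replicate 3 and everolimus replicate 2 lead their groups for most genes.

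Among the members past the filter, 0 of 4 were called in any of the 6 comparisons by limma's moderated test at a Benjamini-Hochberg adjusted p under 0.05. Over all tested genes, the same test called 69.0% between vehicle-treated tumors and normal liver, 72.6% for MLN0128 against normal liver and 70.2% for everolimus against normal liver. Between tumor groups it called 32.0% for MLN0128 against vehicle, 9.83% for everolimus against vehicle and 9.53% for MLN0128 against everolimus. At an unadjusted p under 0.05, 1 of the 4 passed in each of 3 comparisons (*Ccl5* for everolimus against vehicle and for MLN0128 against everolimus, *Nkg7* for everolimus against normal liver) and 0 in the other 3. By limma's voom on the recovered reads, 0 of 4 were called as well.

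*Ptprc* (ENSMUSG00000026395.16, chromosome 1 of GRCm38, 138062861 to 138175708, minus strand) is the member that nearly all leukocytes share. It was found in the normal livers at 0.628, 0.792 and 0.701 FPKM, against 0.479, 0.461 and 0.586 in the vehicle-treated tumors. MLN0128 tumors had 0.656, 0.525 and 0.915, everolimus tumors 0.347, 0.848 and 0.50. The vehicle libraries lay below every normal liver in FPKM, and the libraries of either drug overlapped with both. The log2 difference of vehicle from normal liver was -0.18 (SE 0.128, adjusted p = 0.236, moderated test of limma). The order turned on plain library totals, where *Ptprc* stood at 6.85 to 8.61 RPM in normal liver and 9.51 to 12.3 with vehicle, with a log2 difference of 0.15. MLN0128 gave 11.1 to 22.9 RPM, and on this scale *Ptprc* was called higher with MLN0128 than in normal liver (log2 difference 0.40, adjusted p = 0.0286). Between tumor groups the *Ptprc* difference was within the spread of replicates, at 0.17 for MLN0128 and 0.04 for everolimus against vehicle.

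The T cell genes were read at most 28 times in a library. *Cd3g* (ENSMUSG00000002033.14, chromosome 9, 44969572 to 44980431, minus strand) gave 8, 6 and 0 reads across normal livers, 3, 2 and 2 in vehicle tumors, 6, 6 and 9 in MLN0128 tumors, and 0, 12 and 7 in everolimus tumors. These amounted to 0 to 0.227 FPKM in normal liver, 0.0263 to 0.0428 in vehicle tumors, 0.0646 to 0.115 in MLN0128 tumors and 0 to 0.121 in everolimus tumors. Normal liver and everolimus each ranged from no read, which allows up to 3 reads or 0.0303 to 0.0880 FPKM, to values above every vehicle tumor, and only the vehicle and MLN0128 libraries kept apart. *Cd8a* (ENSMUSG00000053977.13, chromosome 6, 71373427 to 71379173, plus strand) was at 0.0510, 0.0499 and 0.105 FPKM across normal livers, 0.0770, 0.0522 and 0.0590 in vehicle tumors, 0.0871, 0.0774 and 0.172 in MLN0128 tumors, and 0.0291, 0.136 and 0.0441 in everolimus tumors. Its summed reads were 8 in normal liver (95% exact Poisson interval 3.45 to 15.8), 15 with vehicle (8.40 to 24.7), 30 with MLN0128 (20.2 to 42.8) and 21 with everolimus (13.0 to 32.1). *Cd3g* and *Cd8a* were the members whose 3 MLN0128 libraries all lay above the 3 vehicle libraries in FPKM, 2 of 9 where 22.1% of all genes did so. With all genes fitted and no filter on low values, 0 of 9 members were called between MLN0128 and vehicle, against 29.1% of all genes, and the log2 differences were 0.08 for *Cd3g* and 0.06 for *Cd8a*.

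*Cd4* (ENSMUSG00000023274.14, chromosome 6, 124864692 to 124888221, minus strand) was the member with the clearest order of groups. Normal livers held 0.483, 0.382 and 0.666 FPKM and vehicle-treated tumors 0.301, 0.20 and 0.213. MLN0128 tumors held 0.0524, 0.0931 and 0.238, and everolimus tumors 0.0788, 0.156 and 0.0796. All 9 tumors lay below all 3 normal livers, and the everolimus libraries also lay below the vehicle libraries, whereas MLN0128 replicate 3 overlapped with vehicle. In FPKM, 2 of 9 members (*Cd4* and *Ms4a1*) separated all tumors from normal liver in this direction, against 26.2% of all genes. On plain library totals 0 of 9 did, against 10.8% of all genes. Everolimus lay below vehicle for *Cd4* alone, 1 of 9 members against 14.6% of all genes. *Cd4* missed the filter, and in the fit of all genes without it, the log2 differences from normal liver were -0.28 with vehicle (SE 0.0826, limma adjusted p = 0.0104), -0.42 with MLN0128 (adjusted p = 0.000800) and -0.45 with everolimus (adjusted p = 0.000543). The difference of vehicle from normal liver was lost on plain library totals (0.908 to 1.36 against 0.914 to 1.57 RPM), but *Cd4* with everolimus, at 0.350, 0.755 and 0.358 RPM, was still called lower than normal liver (log2 difference -0.21, adjusted p = 0.0441), while MLN0128 no longer passed (-0.16, adjusted p = 0.107). Over the alternatives other than a fold threshold, the adjusted p ran from 0.00523 to 0.794 for vehicle, 0.000424 to 0.107 for MLN0128 and 0.000336 to 0.0441 for everolimus, each against normal liver. Against a fold threshold of 1.5, neither *Cd4* nor any other member was called in any comparison. Against vehicle, *Cd4* was not called with either drug (log2 differences -0.14 and -0.16, adjusted p = 0.239 and 0.246).

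The cytotoxic genes overlapped between most groups. *Nkg7* (ENSMUSG00000004612.9, chromosome 7, 43437073 to 43438249, plus strand), a membrane protein of cytotoxic granules, was at 0.609, 0.298 and 1.15 FPKM across normal livers, 0.306, 0.311 and 0.188 in vehicle tumors, 0.462, 0.308 and 1.01 in MLN0128 tumors, and 0.290, 0.289 and 0.132 in everolimus tumors. All 3 MLN0128 libraries lay above all 3 everolimus libraries, although the nearest pair differed by only 0.308 to 0.290 FPKM, or 6 reads to 5. *Nkg7* alone separated the drugs this way, 1 of 9 members where 13.3% of all genes did. Its log2 difference was 0.34 between the drugs (SE 0.188, adjusted p = 0.270), -0.38 for vehicle against normal liver (adjusted p = 0.0905) and -0.42 for everolimus against normal liver (adjusted p = 0.0647). Against normal liver and on plain library totals, the differences of vehicle and everolimus were -0.094 and -0.13, and that of MLN0128 turned from -0.07 to 0.31.

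*Gzma* (ENSMUSG00000023132.8, chromosome 13, 113093825 to 113100981, minus strand) encodes granzyme A, a protease that killer cells release. It was at 0.0922, 0.361 and 0.857 FPKM across normal livers, 0.835, 0.283 and 0.683 in vehicle tumors, 0.245, 0.793 and 0.416 in MLN0128 tumors, and 1.42, 1.15 and 0.199 in everolimus tumors. The everolimus group held both the highest value and a value near the bottom, and every pair of groups overlapped. *Gzma* was also the member least like the others, since its FPKM correlated negatively with 6 of the other 8 members over the 9 tumors. It was called higher on plain library totals with everolimus than in normal liver (log2 difference 0.65, adjusted p = 0.0436), 1 of 4 members where 59.7% of all genes were called higher, and in FPKM it was not (0.39, adjusted p = 0.215).

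*Ccl5* (ENSMUSG00000035042.2, chromosome 11, 83525778 to 83530518, minus strand) encodes a chemokine that draws T cells and monocytes. It was at 0.773, 1.79 and 1.5 FPKM across normal livers, 1.94, 1.19 and 0.984 in vehicle tumors, 1.25, 1.56 and 1.61 in MLN0128 tumors, and 0.331, 1.31 and 0.418 in everolimus tumors. A pair of the everolimus libraries lay below all other 10, and everolimus replicate 2 lay among the vehicle libraries. The log2 difference from vehicle was -0.52 with everolimus (SE 0.231, adjusted p = 0.178) and 0.08 with MLN0128 (adjusted p = 0.824), and between the drugs it was 0.60 (SE 0.231, adjusted p = 0.126). Everolimus replicate 2 decided this result. Without it, *Ccl5* was called lower with everolimus than with vehicle (log2 difference -0.77, adjusted p = 0.0407), 1 of 4 members against 6.76% of all genes. It was then also called higher with MLN0128 than with everolimus (0.85, adjusted p = 0.0310), 1 of 4 against 3.76%. *Ccl5* and *Ptprc* were called higher on plain library totals with MLN0128 than in normal liver, 2 of 4 members where 64.1% of all genes were, and the log2 difference of *Ccl5* was 0.68 (adjusted p = 0.0211) in place of 0.09.

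Both B cell genes lay lower in all vehicle-treated tumors than in all normal livers, in FPKM and in RPM. *Cd79a* (ENSMUSG00000003379.7, chromosome 7, 24897381 to 24902197, plus strand), a signaling chain of the B cell receptor, had levels of 0.700, 0.622 and 0.395 FPKM in normal livers against 0.0320, 0.195 and 0.177 in vehicle-treated tumors. MLN0128 tumors had 0.145, 0.161 and 0.430 FPKM, everolimus tumors 0.0727, 0.499 and 0.220. On this scale the vehicle libraries lay below every normal liver, and with each drug 1 library, MLN0128 replicate 3 or everolimus replicate 2, reached the range of normal liver. The reads of *Cd79a* were 11, 10 and 6 in normal livers and 1, 6 and 6 with vehicle. Its nearest libraries thus held 6 reads each, and in RPM they stood at 0.336 in normal liver replicate 3 against 0.321 and 0.295 in vehicle replicates 2 and 3. Nearest to the filter, the third highest value of *Cd79a* was 0.499 FPKM, just outside it, and that of *Nkg7* was 0.609, just inside. *Ms4a1* (ENSMUSG00000024673.9, chromosome 19, 11249675 to 11266241, minus strand) was read 9 times in each normal liver. It was read 1, 0 and 3 times with vehicle, 0, 2 and 17 times with MLN0128 and 1, 10 and 0 times with everolimus. Its level was 0.135, 0.132 and 0.139 FPKM in normal liver and 0 to 0.0208 in vehicle-treated tumors. All but MLN0128 replicate 3 (0.115 FPKM) and everolimus replicate 2 (0.0534 FPKM) of the tumors were at or below 3 reads.

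In FPKM, 4 of 9 members (*Ptprc*, *Cd4*, *Cd79a* and *Ms4a1*) had all 3 vehicle-treated tumors below all 3 normal livers, against 33.0% of all genes. In RPM, *Cd79a* and *Ms4a1* still did so, 2 of 9 where 15.8% of all genes did, while *Ptprc* and *Ccl5* had all vehicle libraries above normal liver, 2 of 9 where 61.2% did. *Cd79a* and *Ms4a1* were thus the members that separated these groups in the same direction on both scales. For *Cd79a* the separation in RPM was a near tie, since the nearest libraries held 6 reads each (0.336 RPM in normal liver against 0.321 with vehicle). Without the filter, 3 of 9 members were called lower with vehicle than in normal liver, *Cd79a* (log2 difference -0.47, SE 0.131, adjusted p = 0.00846), *Ms4a1* (-0.17, SE 0.049, adjusted p = 0.0100) and *Cd4*, against 30.7% of all genes. The same 3 genes were called lower with MLN0128, where 32.6% of all genes were, and with everolimus, where 32.0% were. *Cd79a* differed from normal liver by -0.34 with MLN0128 (adjusted p = 0.0383) and -0.32 with everolimus (adjusted p = 0.0486), and *Ms4a1* by -0.12 (adjusted p = 0.0424) and -0.15 (adjusted p = 0.0164). These shares lie near those of all genes. On the read scale of voom the vehicle differences were -2.23 for *Cd79a* (adjusted p = 0.0225) and -3.79 for *Ms4a1* (adjusted p = 0.0163), since a pseudocount of 1 FPKM shrinks the change of low genes. No member was called lower with vehicle on plain library totals, where *Cd79a* differed by -0.22 (adjusted p = 0.214) and *Ms4a1* by -0.096 (adjusted p = 0.152) in limma's moderated test, nor by voom on that scale. Over 23 alternatives without a fold threshold, the adjusted p with vehicle ran from 0.00162 to 0.214 for *Cd79a* and from 0.00373 to 0.152 for *Ms4a1*, and both calls were kept with each of the 12 libraries left out in turn. The calls in the drug groups were less stable. *Cd79a* passed in 13 of 23 alternatives with MLN0128 (adjusted p up to 0.848) and in 6 of 23 with everolimus (up to 0.781), and *Ms4a1* in 7 of 23 with MLN0128 (up to 0.724) and in 18 of 23 with everolimus (up to 0.248). With 1 library left out, the *Cd79a* call was kept in 8 of 12 fits with MLN0128, lost without replicate 1 or 2 of normal liver or MLN0128. With everolimus it was kept in 3 of 12, those without normal liver replicate 3, MLN0128 replicate 3 or everolimus replicate 2. The *Ms4a1* call was kept in 2 of 12 fits with MLN0128, those without MLN0128 replicate 3 or everolimus replicate 2, and in 10 of 12 with everolimus, lost without everolimus replicate 1 or 3. Erythroid genes, which mark blood, also differed, with 6 of 7 tested lower with vehicle than in normal liver (5 of 7 on plain library totals) and 8 genes summing to 295 to 659 FPKM in normal liver, 36.2 to 89.4 in vehicle, 17.6 to 41.6 in MLN0128 and 108 to 133 in everolimus tumors, and the share of blood in these values was not tested.

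**Figure D2:**
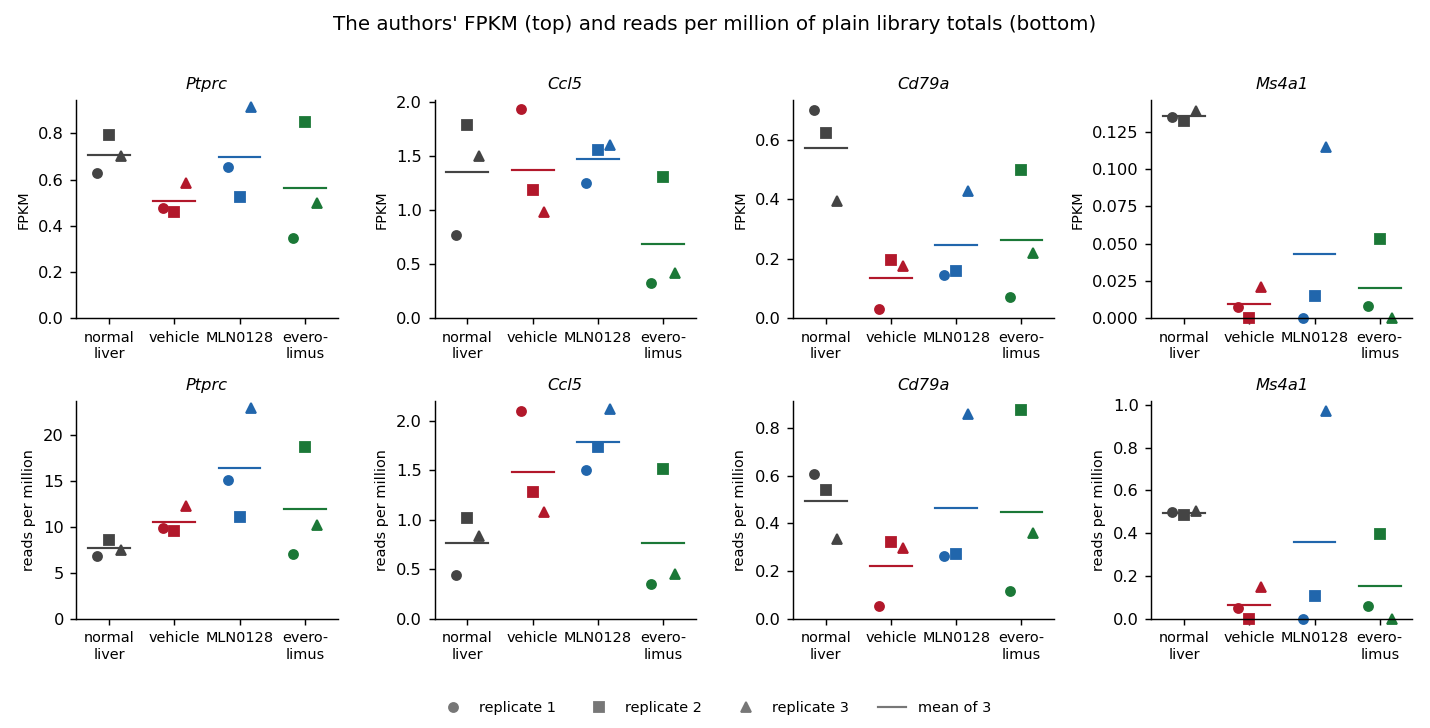
Ptprc, Ccl5, Cd79a and Ms4a1 by group in FPKM as deposited (top row) and in RPM on plain library totals (bottom row), linear axes from 0, with points for the 3 libraries of a group and bars for means. Vehicle-treated tumors sit below normal liver for Cd79a and Ms4a1 in both rows, whereas for Ptprc they sit below it in the top row and above it in the bottom row. For Cd79a the nearest libraries in the bottom row almost touch, at 0.321 RPM with vehicle and 0.336 RPM in normal liver, from 6 reads each.

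Between tumor groups no member moved past the test in the fit of all genes without the filter. The counts were 0 of 9 for MLN0128 against vehicle, 0 of 9 for everolimus against vehicle, where 8.71% of all genes were called, and 0 of 9 for MLN0128 against everolimus, where 8.27% were. By voom without the filter they were also 0, and at an unadjusted p under 0.05 limma's moderated test passed 0, 1 and 1 members and voom 1, 1 and 1. The largest member differences from vehicle in this fit were those of *Ccl5* with everolimus (-0.52) and of *Nkg7* with MLN0128 (0.31).

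A ratio of reads to those of *Ptprc* in the same library does not depend on the scaling between libraries. Per 100 *Ptprc* reads, *Ms4a1* had 7.26, 5.63 and 6.72 reads across normal livers, 0.532, 0 and 1.2 in vehicle tumors, 0, 0.976 and 4.24 in MLN0128 tumors, and 0.833, 2.13 and 0 in everolimus tumors. All 9 tumors lay below all normal livers, for 1 of the 8 members that can be set against *Ptprc*, where 15.5% of all genes did so. *Cd79a* had 8.87, 6.25 and 4.48 reads per 100 in normal liver and 0.532, 3.37 and 2.40 with vehicle. With *Ms4a1* it made 2 of 8 members whose vehicle libraries all lay below normal liver on this ratio, against 21.0% of all genes.

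On the same ratio *Cd4* had 16.9, 10.6 and 20.9 reads per 100 *Ptprc* reads in normal liver and 13.8, 9.55 and 8.0 with vehicle. With MLN0128 it had 1.76, 3.90 and 5.74, with everolimus 5.0, 4.04 and 3.51. All 6 drug-treated tumors lay below all 3 vehicle-treated tumors and all 3 normal livers, and vehicle overlapped with normal liver. *Cd4* was 1 of 8 members with MLN0128 below vehicle, against 31.1% of all genes. With everolimus *Cd4* and *Ccl5* made 2 of 8, against 10.7% of all genes. *Ccl5* had 8.8 to 21.3 reads per 100 *Ptprc* reads with vehicle and 6.45 to 11.9 in normal liver, against 9.23 to 15.6 with MLN0128 and 4.39 to 8.09 with everolimus. These ratios are given as a description, with no test.

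**Figure D3:**
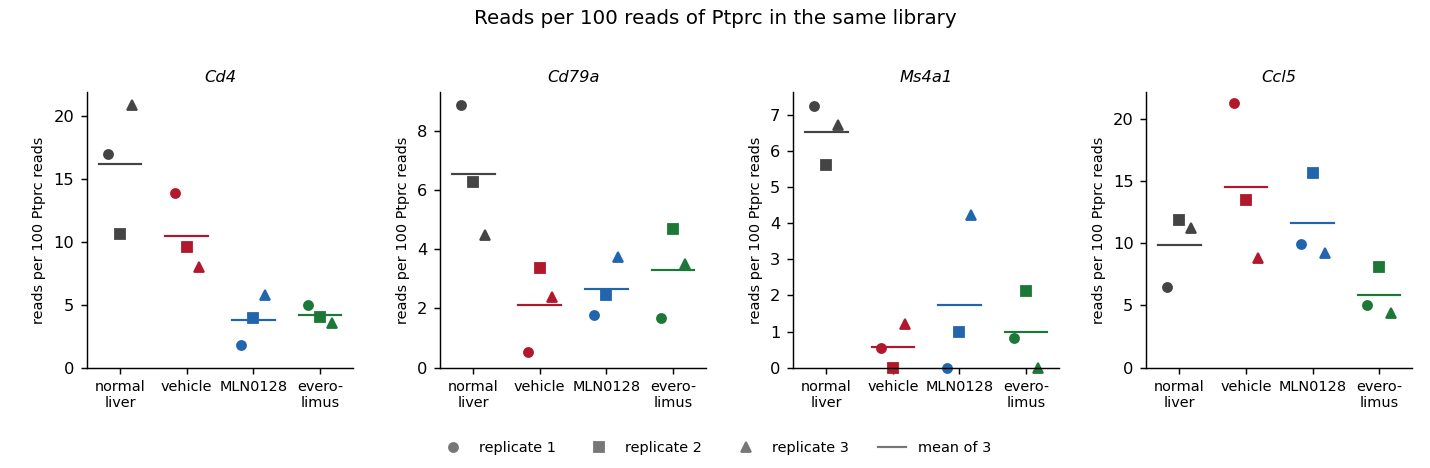
Reads of Cd4, Cd79a, Ms4a1 and Ccl5 per 100 reads of Ptprc in the same library, by group, linear axes from 0, with points for the 3 libraries and bars for the mean of the 3 ratios. For Cd4 the 6 drug-treated tumors sit between 1.76 and 5.74, below the vehicle libraries at 8.0 to 13.8, and for Ms4a1 all 9 tumors sit below normal liver.

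The spread within the drug groups followed single libraries. MLN0128 replicate 3 was highest of its group for 8 of 9 members, all but *Gzma*, and everolimus replicate 2 for 7 of 9, all but *Nkg7* and *Gzma*. The members other than *Ptprc* summed to 148 reads in MLN0128 replicate 3 and to 80 and 82 in the other MLN0128 libraries, and to 159 in everolimus replicate 2 and to 49 and 45 in the other everolimus libraries. In the normal livers these sums were 66, 70 and 82, and with vehicle 101, 65 and 78. MLN0128 replicate 3 was also the only MLN0128 library with Y-linked RNA. Everolimus replicate 2 had the highest summed FPKM of 12 Kupffer cell and macrophage genes (285 against 121 and 138) and of 8 hepatocyte genes (8007 against 3361 and 3056) in its group. MLN0128 replicate 3 had the highest macrophage sum (157 against 101 and 84.1) but the lowest hepatocyte sum (1793 against 2608 and 4049). The part of these differences in the members' values was not tested. With both libraries left out, a choice made after seeing the data, *Ccl5* was again called lower with everolimus than with vehicle (-0.77, adjusted p = 0.0425), and no member was called between MLN0128 and vehicle.

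Most pairs of members correlated positively across tumors, with *Gzma* apart. *Cd4* followed the others unevenly, with r of -0.021 with *Cd3g* and 0.084 with *Cd79a* but 0.592 with *Ccl5*. The part of MLN0128 replicate 3 and everolimus replicate 2, which led their groups for most members, in these correlations was not tested. As a description over 9 tumor libraries, in which the genes of a pair share each library's depth and scaling, 29 of 36 pairs correlated positively in FPKM, with a median r of 0.408. The highest was *Ptprc* with *Cd8a* (0.941), and *Cd79a* with *Ms4a1*, both B cell genes, stood at 0.757. The tested genes outside the gene lists most like the mean standardized profile of *Ptprc*, *Nkg7*, *Gzma* and *Ccl5* over 12 libraries were *Setd4* (r = 0.805), *Lpxn* (0.788), *Sp140* (0.786), *Sash3* (0.775), *Snx14* (0.769), *H2-Q5* (0.767), *Mpg* (0.757), *Il10ra* (0.756), *AB124611* (0.756) and *Nudt16* (0.753). *Sash3* and *Il10ra* are known from lymphocytes and *Lpxn* and *Sp140* from leukocytes. *H2-Q5* belongs to a family whose close copies share reads.

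Further T cell genes split by gene. Of 13 in the table, 7 were tested, and in vehicle-treated tumors 4 of the 7 were lower and 1 was higher than in normal liver, where 33.0% of all tested genes were lower and 36.0% higher (median log2 difference -0.73, against 0.06 over all tested genes). On plain library totals 2 were lower and 2 higher, where 15.2% and 61.3% of all tested genes were (median -0.26, against 0.62). *Zap70*, the kinase downstream of the T cell receptor, was at 5.33, 2.27 and 4.29 FPKM in normal liver against 0.129 to 0.203 in vehicle, 0.106 to 0.204 in MLN0128 and 0.0531 to 0.232 in everolimus tumors. Normal liver thus stood far above every tumor, with a log2 difference of -2.03 for vehicle (SE 0.191, adjusted p = 2.35e-06), and -1.45 on plain library totals (adjusted p = 1.11e-05). In normal liver *Zap70* stood at 4.03 RPM or more in each library, against 0.166 to 0.561 for *Cd3d* and 0.336 to 0.861 for *Lck*. *Tcf7* stood at 3.14 to 5.06 RPM there, and *Ptprc* at 6.85 to 8.61. How much of the *Zap70* RNA came from T cells was not tested. *Trbc1*, a constant region of the T cell receptor beta chain, was also lower on both scales (-0.91, adjusted p = 0.00229, and -0.51, adjusted p = 0.0336). It shares near-identical sequence with *Trbc2*, so reads could be split between them. *Tcf7*, a transcription factor of T cells (-0.93), and *Trbc2* (-0.73) were lower in FPKM only. *Thy1*, a surface protein of T cells that stromal cells also carry, was higher on both scales (0.90, adjusted p = 0.00639, and 1.15).

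**Figure D4:**
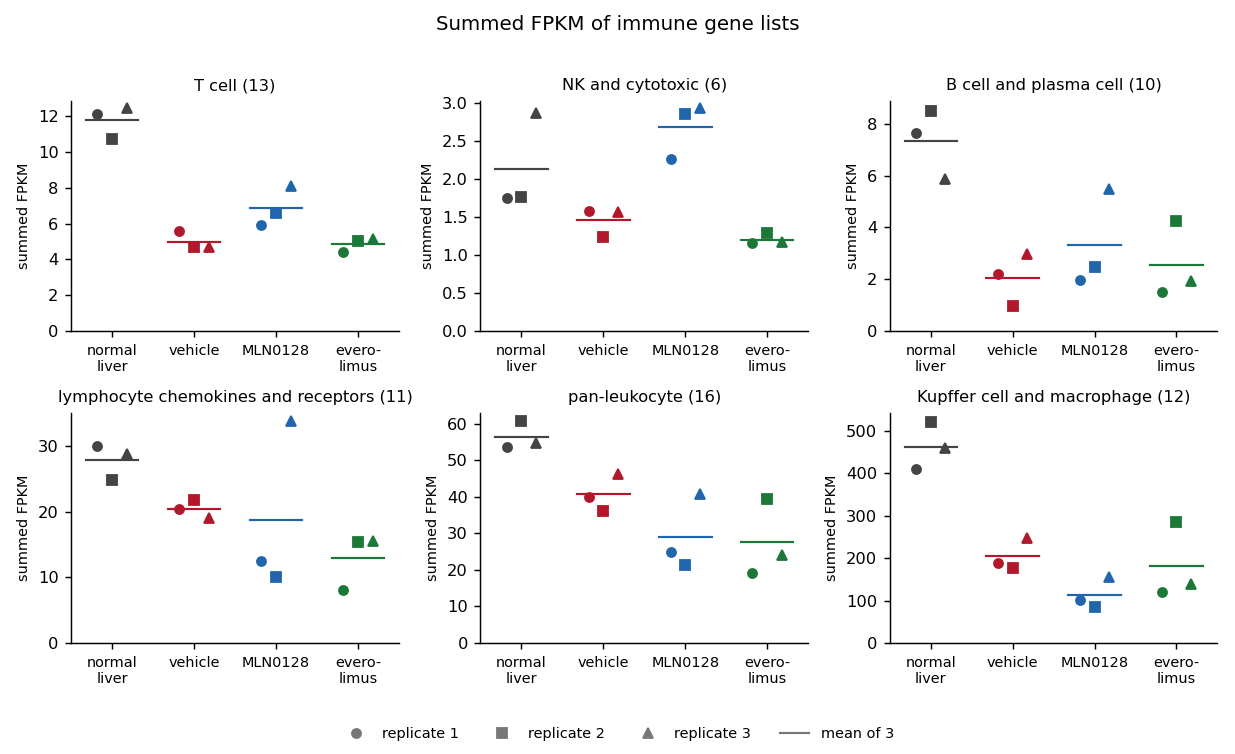
Summed FPKM of 6 lists of immune genes, with the number of genes in the table in brackets, by group, linear axes from 0, points for the 3 libraries and bars for means. In FPKM, T cell and B cell sums sit highest in normal liver, but in RPM MLN0128 replicate 3 exceeds every normal liver for both (26.8 against 14.0 to 17.5, and 16.4 against 8.47 to 11.1), and the NK and cytotoxic sum sits higher in every MLN0128 library than in any vehicle or everolimus library on either scale. Single genes weigh on the T cell sum. In normal liver Zap70 holds 4.03 RPM or more per library and Thy1 0.484 to 0.608. In vehicle-treated tumors Zap70 holds 0.443 to 0.681 RPM and Thy1 3.42 to 6.94. The order of the T cell sums without these genes was not tested.

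With MLN0128, 2 of the 7 tested T cell genes were higher than with vehicle, *Cd27* and *Trbc1*, where 14.9% of all genes were. *Cd27*, a costimulatory receptor of lymphocytes, had 0.361, 0.285 and 0.258 FPKM in vehicle tumors, 1.33, 1.33 and 0.700 in MLN0128 tumors, and 1.32, 0.653 and 0.569 in everolimus tumors. Both drug groups lay above vehicle, and only MLN0128 passed the test (log2 difference 0.69, adjusted p = 0.00814, against 0.48 and 0.0810). *Trbc1* was higher with MLN0128 by 0.60 (adjusted p = 0.0490), a call kept in 10 of 23 alternatives (adjusted p 0.0148 to 0.221) and lost without any 1 of the MLN0128 or everolimus libraries, vehicle replicate 2 or 3 or normal liver replicate 2. *Cd27* kept its call with MLN0128 in 22 of 23, and lost it where the fit held a term for X and Y content, here called the X and Y term. That term marks only MLN0128 replicates 1 and 2, so MLN0128 replicate 3 alone stood for the group there. A call lost with it therefore cannot be told apart from the loss of these libraries. Without MLN0128 replicate 3 and everolimus replicate 2, 1 of the 7 was higher than with vehicle in each drug group, *Cd27* in both (adjusted p = 0.0441 with everolimus). The shares of all genes called in that setting are not given here, so these counts cannot be read as a result about the list. The median of the 7 was 0.17 for MLN0128 and -0.044 for everolimus against vehicle. With everolimus 0 of 7 were called, with 0.11 for *Tcf7* and -0.20 for *Thy1*, the most abundant of the 7 on average, and between the drugs 0 of 7 were called (1, *Trbc1*, on plain library totals). The 6 T cell checkpoint and regulatory genes in the table had 1 tested member, *Tnfrsf18*, which encodes the costimulatory receptor GITR. It had 0.612, 0.560 and 0.338 FPKM in vehicle tumors, 1.69, 1.54 and 1.40 in MLN0128 tumors, and 0.556, 0.715 and 0.474 in everolimus tumors. MLN0128 exceeded vehicle by 0.76 (SE 0.121, adjusted p = 0.00104) and everolimus by 0.69 (adjusted p = 0.0104). The first call was kept in 23 of 23 alternatives, and the second in 19 of 23. The second was lost with the X and Y term, with only the 2 drug groups fitted, and without MLN0128 replicate 1 or everolimus replicate 3. *Tnfrsf18* overlaps an antisense gene whose reads cannot be told apart because counting by strand is not given in the sources used here.

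Among 6 further NK and cytotoxic genes, *Ctsw*, which encodes the protease cathepsin W, and *Il2rb*, a chain of the interleukin 2 and 15 receptors, were tested. *Il2rb* was at 0.871, 0.919 and 0.712 FPKM with MLN0128 and 0.161, 0.308 and 0.272 with everolimus, with vehicle between them at 0.411 to 0.586. It was higher with MLN0128 than with everolimus by 0.56 (SE 0.114, limma adjusted p = 0.0156). This call was lost with the X and Y term, with only the 2 drug groups fitted, and without MLN0128 replicate 1 or everolimus replicate 1 or 3. Neither drug passed against vehicle in FPKM (0.29, limma adjusted p = 0.0752, and -0.27, adjusted p = 0.156). *Ctsw*, which overlaps a gene on the opposite strand, was not called in FPKM either (0.38 for MLN0128 against vehicle, adjusted p = 0.116). On plain library totals both genes were called higher with MLN0128 than with vehicle (adjusted p = 0.0148 and 0.0304) and than with everolimus. The shares of all genes called between tumor groups on that scale are not given here. These calls therefore cannot be read as a result about the list. The median over both was 0.33 for MLN0128 and -0.16 for everolimus against vehicle, and -0.10 for vehicle against normal liver. *Il2rb* was also lower with everolimus than in normal liver in FPKM (-0.36, adjusted p = 0.0134) but not on plain library totals (-0.08).

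Of 10 further B cell and plasma cell genes, 3 were tested, and 2 were lower with vehicle than in normal liver (median -1.02), 1 of them on plain library totals (median -0.58). The shares of all tested genes called lower were 33.0% and 15.2% on these scales, with medians of 0.06 and 0.62. *Jchain*, the joining chain of polymeric antibodies, was at 1.18, 1.33 and 2.09 FPKM across normal livers, 0.408, 0.0754 and 0.239 in vehicle tumors, 0.112, 0.168 and 0.249 in MLN0128 tumors, and 0.273, 0.774 and 0.175 in everolimus tumors. Every tumor lay below every normal liver in FPKM, whereas in RPM everolimus replicate 2 (2.34) lay among the normal livers (1.77, 1.99 and 3.08), and vehicle differed by -1.02 (SE 0.175, adjusted p = 0.000272), or -0.58 on plain library totals (adjusted p = 0.0121). *Ighm*, the heavy chain of IgM, differed by -1.12 with vehicle (adjusted p = 0.0198), which did not pass on plain library totals (-0.58, adjusted p = 0.243) or without normal liver replicate 1 or vehicle replicate 2. MLN0128 replicate 3 had 138 *Ighm* reads, more than any other library, beside 25 and 8 in the other MLN0128 tumors. *Mzb1*, a plasma cell chaperone that shares exon sequence with a neighboring gene, was not called between MLN0128 and vehicle in FPKM (0.49, adjusted p = 0.0647) but was on plain library totals (0.60, adjusted p = 0.0221). No other call was made among these 3 genes between tumor groups on either scale.

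Chemokines and receptors that guide lymphocytes moved in both directions. Of 8 tested genes, 4 were lower and 3 higher in vehicle-treated tumors than in normal liver (median -0.084), and 3 were lower and 4 higher on plain library totals. All tested genes also moved in both directions, with 33.0% lower and 36.0% higher in FPKM. On plain library totals these shares were 15.2% and 61.3%. *S1pr1*, a receptor for lymphocyte exit that endothelium also carries, fell by 2.11 on the log2 scale (adjusted p = 1.16e-06), and *Cxcl9* and *Cxcl13*, chemokines for T and B cells, by 1.66 and 1.32. All 3 were lower on plain library totals too. *Cxcl10*, a chemokine related to *Cxcl9*, was higher by 1.48 (adjusted p = 0.0356, but 0.0944 by voom, and lost without any 1 of the normal livers or vehicle replicate 1 or 2, up to 0.113), with 4.16 to 8.13 FPKM in vehicle libraries against 0.741 to 1.91 in normal liver. *Cxcl16*, the ligand of CXCR6, was higher with vehicle (7.44, 8.94 and 8.99 FPKM) than in normal liver (2.70 to 3.63), and fell from vehicle with MLN0128 by 1.05 (adjusted p = 0.0217, and 0.0544 on plain library totals) and with everolimus by 1.53 (adjusted p = 0.0107). The MLN0128 call was lost without MLN0128 replicate 1 or 2, without vehicle replicate 1 or 3, and with the X and Y term. The everolimus call was lost without everolimus replicate 1 (limma adjusted p = 0.0524). Both *Cxcl10* and *Cxcl16* overlap a gene on the opposite strand.

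Of 14 tested pan-leukocyte genes, 6 were lower and 0 higher with vehicle than in normal liver in FPKM (33.0% and 36.0% of all genes), but on plain library totals 0 were lower and 4 were higher (15.2% and 61.3% of all genes), and the median log2 difference went from -0.27 to 0.10. *Cd52*, a surface glycopeptide, *Ptpn6*, a phosphatase, and *Itgal* fell by 1.22, 0.87 and 0.80 in FPKM, the first 2 overlapping other genes, and none of the 3 passed on plain library totals. Between tumor groups 2 genes passed. *Lcp1*, an actin bundling protein of leukocytes whose gene overlaps antisense genes, had 11.4, 11.7 and 14.2 FPKM in vehicle tumors, 2.60, 1.57 and 3.98 in MLN0128 tumors, and 2.71, 5.41 and 3.87 in everolimus tumors, and was lower with both drugs (-1.90, adjusted p = 0.000323, and -1.46, adjusted p = 0.00409). In vehicle tumors *Lcp1* stood at 122 to 155 RPM, far above *Laptm5*, the next highest of this list (18.1 to 26.3), and *Ptprc* (9.51 to 12.3). How much of the *Lcp1* RNA came from leukocytes was not tested. *Itgal*, the alpha chain of a leukocyte integrin, was higher with MLN0128 than with vehicle (0.92, limma adjusted p = 0.00410), a call lost with the X and Y term. Without MLN0128 replicate 3 and everolimus replicate 2, 1 of the 14 was higher and 4 were lower with MLN0128 than with vehicle, and 4 were lower with everolimus. That setting was added after seeing the data, and the shares of all genes called in it are not given here. List counts in it, here and below, therefore cannot be read as a result. Of 12 Kupffer cell and macrophage genes, 5 were lower with MLN0128 than with vehicle and 1 with everolimus (4 without MLN0128 replicate 3 and everolimus replicate 2). Over all genes with all 12 libraries kept, 17.1% were lower with MLN0128 and 6.05% with everolimus. The MLN0128 calls were lost with the X and Y term, under which MLN0128 replicate 3 alone stood for its group. With vehicle 9 were lower and 1 higher than in normal liver in FPKM, and 4 lower and 1 higher on plain library totals. The higher gene on both scales was *Cd68*, a lysosomal glycoprotein of macrophages, at 24.6 to 36.8 FPKM with vehicle against 4.8 to 5.75 in normal liver, and it was among the genes lower with either drug than with vehicle. The summed macrophage FPKM was 410 to 521 in normal liver against 176 to 248 in vehicle, 84.1 to 157 in MLN0128 and 121 to 285 in everolimus tumors. In RPM it was 441 to 560 in normal liver, 295 to 440 in vehicle and 153 to 326 in MLN0128 tumors, and everolimus replicate 2 at 599.9 exceeded every normal liver while the other everolimus libraries had 216 and 246. Its part in the *Ptprc* and *Cd4* values was not tested.

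Drug-treated tumors were also set against normal liver, on both scales. As background, MLN0128 tumors had 35.5% of all genes called lower and 37.1% called higher (15.7% and 64.1% on plain library totals), everolimus tumors 34.3% and 35.9% (16.1% and 59.7%). Among 7 T cell genes, MLN0128 tumors had 3 lower and 3 higher (1 and 3 on plain library totals), everolimus tumors 4 lower and 3 higher (2 and 3). Some MLN0128 counts of this paragraph moved with the X and Y term. MLN0128 replicate 3 alone stood for its group there, so those counts are not given. Of 3 B cell genes, 1 was lower with MLN0128 (1 lower and 1 higher on plain library totals) and 2 with everolimus (0). Among 8 chemokine genes, MLN0128 tumors had 4 lower and 2 higher (3 and 3), everolimus tumors 4 lower and 1 higher (3 and 1). Without MLN0128 replicate 3 and everolimus replicate 2 the MLN0128 count was 4 lower and 1 higher. Of 14 pan-leukocyte genes, 5 were lower with MLN0128 and 6 with everolimus in FPKM, against 1 lower and 4 higher, and 0 lower and 1 higher, on plain library totals. Without MLN0128 replicate 3 and everolimus replicate 2, 9 were lower with MLN0128 and 10 with everolimus. The shares of all genes called without those libraries are not given here. Neither these counts nor the chemokine count in that setting can be read as a result. *Cd53*, a tetraspanin of leukocytes, was lower than in normal liver by 1.47 with MLN0128 and by 1.28 with everolimus in FPKM, and neither passed on plain library totals. The 3 tumor groups share the same 3 normal livers, and the drug groups share the same vehicle libraries.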

How the data were processed

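RNA of 12 mice was sequenced at Novogene. The authors assigned reads to Ensembl genes, carried these over to Entrez entries with symbols, and deposited FPKM. GRCm38 and FastQC 0.11.7 are named in the submitters' processing notes; the aligner, gene lengths and strand setting are not given in the sources used here. The values are FPKM and not counts, so no count model was used as the main test.

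Values were taken as log2(FPKM + 1). A gene was tested where 3 or more of 12 libraries reached 0.5 FPKM (14397 of 17007 genes). All tested genes and libraries entered 1 fit of limma 3.58.1 (R 4.3.3) with an intensity trend, and were called at a Benjamini-Hochberg adjusted p under 0.05 over all tested genes. Members below the filter were fitted in a second fit of all 17007 genes, an addition made after seeing the data. The members and gene lists were chosen with earlier results of these data known. Named from each list were up to 3 called genes with the largest difference per comparison, or the 2 most abundant where none was called, and the 10 genes most like the members.

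Positions and exon lengths came from GENCODE M21 (16864 rows matched); 22 symbols had been turned into dates. FPKM times exon length fell within 0.1 of whole reads for 98.2% to 98.9% of values up to 20 reads (chance 20%), which gave 17164090 to 25178729 reads per library and the scaling the FPKM carry. At these depths 3 reads on a 2 kb transcript equal 0.0495 to 0.144 FPKM. The libraries of a group came from separate mice. The test was tried on simulated data. Alternatives covered pseudocount, filter, scaling, fold threshold, voom on recovered reads, trend, libraries in the model, X and Y content, replicate block and each library left out. Tables and plots used pandas 2.3.3, scipy 1.17.1 and matplotlib 3.10.9 in Python 3.11.15.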

Additional observations from a re-analysis of the deposited data

How the results depend on the processing

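Low depth limits every member: apart from *Ptprc*, group values rest on 4 to 103 summed reads, and 3 libraries a group leave adjusted p values wide. Under the alternatives run, the count of members called stayed at 0 of 4 in each comparison except as follows, and the cause of each change was not tested unless the setting itself shows it (more genes or fewer libraries tested). Without the filter on low values, which adds 5 members, 3 were lower than normal liver in each tumor group, and by voom without the filter 2 in each. Against a fold threshold of 1.5 without the filter, 0 of 9 were called in any comparison. A pseudocount of 1 FPKM makes that threshold stricter for low genes. On plain library totals 2 members were higher with MLN0128 and 1 with everolimus than in normal liver, with or without the filter, and 1 was lower with everolimus without it. With voom on plain library totals 2 were higher with MLN0128 (3 without the filter), and 1 was lower with everolimus without the filter. With a pseudocount of 0.1, and with a term for X and Y content, 1 member (*Nkg7*) was lower with everolimus than in normal liver. Leaving out MLN0128 replicate 3 and everolimus replicate 2, added after seeing the data, gave 1 lower with everolimus than with vehicle with or without the filter, and, against normal liver, 2 lower with everolimus (6 without the filter) and, without the filter, 3 lower with vehicle and 3 with MLN0128. The shares of all genes called in that setting are not given here, so these counts cannot be read as a result about the members.

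Leaving out each library in turn, the counts ran from 0 to 1 for lower with vehicle than in normal liver, lower or higher with everolimus than in normal liver, lower with everolimus than with vehicle, and higher with MLN0128 than with everolimus. Without normal liver replicate 2, *Nkg7* was lower with vehicle (-0.55, adjusted p = 0.0210) and everolimus (-0.59, adjusted p = 0.0150). Without normal liver replicate 1, *Ccl5* was lower with everolimus (-0.69, adjusted p = 0.0240), and so it was without everolimus replicate 2 (-0.75, adjusted p = 0.00798). Without MLN0128 replicate 3, *Nkg7* was lower with everolimus (-0.42, adjusted p = 0.0368). Without everolimus replicate 3, *Gzma* was higher than in normal liver (0.70, adjusted p = 0.0225). Without normal liver replicate 3 and without the filter, *Cd3g* was lower with vehicle (-0.21, adjusted p = 0.00912) and everolimus (-0.16, adjusted p = 0.0304).

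Same-numbered libraries did not deviate together (r of -0.289 to 0.148, over 0.1 in 1 of 18 pairs), so the numbers do not pair them. A replicate block left 0 of 4 members called, and without the filter *Cd79a* for everolimus (adjusted p = 0.0547) and *Ms4a1* for MLN0128 (adjusted p = 0.0604) no longer passed against normal liver.

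Directions turned as follows, in log2. On plain library totals the difference from normal liver was, for *Ptprc*, 0.15 with vehicle, 0.40 with MLN0128 and 0.20 with everolimus, for *Cd3g* 0.047 with MLN0128 and 0.0032 with everolimus, for *Cd8a* 0.042 with vehicle and for *Nkg7* 0.31 with MLN0128, and *Cd79a* differed by 0.016 between MLN0128 and everolimus. Voom on plain library totals gave 0.46, 1.03 and 0.59 for *Ptprc*, 1.16 and 0.15 for *Cd3g*, 0.75 for *Cd8a*, 0.83 for *Nkg7* and 0.084 for *Cd79a* in the same comparisons, and -0.034 for *Cd8a* with everolimus against vehicle. Voom on the deposited scale gave 0.074 for *Cd3g* with MLN0128 against normal liver and, for *Cd8a* with everolimus, -0.027 against vehicle and -0.21 against normal liver. Under the X and Y term, MLN0128 replicate 3 alone stood for its group. The differences with MLN0128 were then 0.17 for *Ptprc* and 0.28 for *Nkg7* against normal liver, 0.00090 for *Cd4* against vehicle and 0.19 for *Cd79a* against everolimus. For *Cd8a* with everolimus against normal liver, a pseudocount of 0.1 gave -0.027, one of 0.5 gave -0.00060 and median of ratios scaling gave -0.00010, and a pseudocount of 0.1 gave 0.011 for *Cd79a* between the drugs. Without MLN0128 replicate 3 and everolimus replicate 2, everolimus against vehicle gave -0.085 for *Ptprc*, -0.036 for *Cd8a* and -0.0074 for *Ms4a1*, everolimus against normal liver -0.044 for *Cd8a*, MLN0128 against vehicle -0.0026 for *Ms4a1*, and MLN0128 against everolimus -0.0089 for *Cd4* and 0.011 for *Cd79a*.

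Leaving out each library in turn, these log2 differences changed sign. For vehicle against normal liver, *Ccl5* ran from -0.18 to 0.15, *Cd8a* from -0.020 to 0.017 and *Gzma* from -0.0067 to 0.38. For MLN0128 against normal liver, *Ccl5* ran from -0.098 to 0.23, *Cd3g* from -0.14 to 0.011, *Gzma* from -0.12 to 0.27, *Nkg7* from -0.25 to 0.12 and *Ptprc* from -0.10 to 0.062. For MLN0128 against vehicle, *Ccl5* ran from -0.040 to 0.24, *Gzma* from -0.26 to 0.010 and *Ms4a1* from -0.0026 to 0.076. For everolimus against vehicle, *Cd8a* ran from -0.036 to 0.035, *Ms4a1* from -0.0074 to 0.030, *Nkg7* from -0.084 to 0.025 and *Ptprc* from -0.085 to 0.14. For everolimus against normal liver, *Cd8a* ran from -0.044 to 0.028. For MLN0128 against everolimus, *Cd3g* ran from -0.020 to 0.063, *Cd4* from -0.042 to 0.075, *Cd79a* from -0.13 to 0.11 and *Ms4a1* from -0.018 to 0.060. Of all member differences recomputed, 592 of 678 under other settings and 584 of 648 with a library left out kept both their direction and their side of the threshold.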

Other observations

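The lists of other cell types fixed beside the lymphocyte lists gave these counts of called genes in FPKM. Over all tested genes, 33.0% were lower and 36.0% higher for vehicle against normal liver, and 17.1% and 14.9% for MLN0128 against vehicle. The shares lower and higher were 6.05% and 3.78% for everolimus against vehicle, and 5.54% and 3.99% for MLN0128 against everolimus. For vehicle against normal liver, 5 of 8 endothelial genes were lower (4 lower and 2 higher on plain library totals), 2 of 3 dendritic cell genes were lower and 1 higher, 4 of 8 stellate cell and fibroblast genes were lower and 4 higher, 1 of 5 neutrophil genes was higher and 1 of 2 platelet genes was lower. For MLN0128 against vehicle, 1 of 5 neutrophil genes and 1 of 7 erythroid genes were lower, 1 of 8 stellate cell and fibroblast genes was higher, and 0 were called among endothelial, dendritic cell and platelet genes. For everolimus against vehicle, 2 of 7 erythroid genes were higher, 1 of 5 neutrophil genes was lower, and 0 were called in the endothelial, dendritic cell, platelet and stellate cell lists. Between the drugs, 4 of 7 erythroid genes were lower with MLN0128 than with everolimus, and erythroid sums of 17.6 to 41.6 FPKM with MLN0128 lay below those of 108 to 133 with everolimus. Of 12 Kupffer cell and macrophage genes, 2 (*Cd5l* and *Marco*, named after their values were seen) were lower with MLN0128 than with everolimus. Both calls were lost with the X and Y term, with only the 2 drug groups fitted, and without MLN0128 replicate 1. That of *Marco* was also lost without MLN0128 replicate 2 or everolimus replicate 2 or 3. Of 8 hepatocyte genes, 3 were lower and 1 higher with MLN0128 than with vehicle (2 and 2 on plain library totals), 2 were lower with everolimus than with vehicle on either scale, and 0 were called between the drugs.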
